A study of Rattus norvegicus with 12 samples.

Results

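The genes described here are 9 genes of antioxidant defence or its control, most of them targets of the transcription factor Nrf2: Hmox1, Ftl1, Gclc, Gclm, Txnrd1, Txnip, Nqo1, Sod1 and Gpx3. They were chosen by name from a list of antioxidant genes, and they are 9 of the 13336 named genes on the array. Each had 1 probe, and the 9 probes passed the filter on dim signals, lying between the 94.2 and the 99.8 percentile of mean signal. Illumina bead arrays measured their RNA in rat tail tendon fascicles, thin bundles of collagen fibres that hold the tendon's fibroblasts, the tenocytes. The 4 groups were fascicles kept in vitro without strain for 1 h, under cyclic tensile strain for 1 h, without strain for 24 h, and under cyclic tensile strain for 24 h, with 3 arrays each. Rat strain, age and sex, the size and rate of the stretch, and the medium are not stated, and no array of tendon before culture is used here. No label ties the 3 samples of a group to different animals or cultures, so the p-values may reflect technical spread alone.

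Nrf2, encoded by Nfe2l2, is held in the cytoplasm and sent for degradation by Keap1. Oxidants and electrophiles act on Keap1 and release Nrf2, which enters the nucleus, pairs with a small Maf protein and binds antioxidant response elements in the promoters and enhancers of its targets. The targets make glutathione, regenerate thioredoxin, reduce quinones, break down heme and store iron. Tendon cells live in a dense matrix with few blood vessels.

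Promoter sequences were searched for the motif that Nrf2 binds. The RefSeq table for build GRCr8 held 7 windows for 6 of the 9 genes, each running from 250 bases before a transcription start to 50 after it. Hmox1, Txnip and Ftl1 are named only. The core of the antioxidant response element, TGACNNNGC, was searched on both strands. It was found in 1 window of Gclm and 1 of the 2 windows of Txnrd1, and in 12.1% of all 33469 promoter windows of the table. The windows below are shown because Gclm and Txnrd1 hold the core, and because Gclc and Nqo1 are the other textbook Nrf2 targets with a window. They are written 5′ to 3′ on the gene's strand, with the matched core in capitals.
Gclm, chr2:213031885-213032184, plus strand: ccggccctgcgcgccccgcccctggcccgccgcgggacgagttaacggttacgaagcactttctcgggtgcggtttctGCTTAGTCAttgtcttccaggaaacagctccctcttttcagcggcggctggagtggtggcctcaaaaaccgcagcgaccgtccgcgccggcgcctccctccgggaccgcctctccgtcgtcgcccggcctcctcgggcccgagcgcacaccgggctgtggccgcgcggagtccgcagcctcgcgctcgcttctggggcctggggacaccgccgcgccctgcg
Txnrd1, second window, chr7:22755855-22756154, minus strand: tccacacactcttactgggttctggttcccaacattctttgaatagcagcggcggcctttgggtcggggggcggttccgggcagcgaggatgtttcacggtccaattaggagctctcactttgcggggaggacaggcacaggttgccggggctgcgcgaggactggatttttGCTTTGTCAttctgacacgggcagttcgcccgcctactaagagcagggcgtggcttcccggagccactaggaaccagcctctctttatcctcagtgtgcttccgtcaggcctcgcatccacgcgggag
Gclc, chr8:87510226-87510525, plus strand: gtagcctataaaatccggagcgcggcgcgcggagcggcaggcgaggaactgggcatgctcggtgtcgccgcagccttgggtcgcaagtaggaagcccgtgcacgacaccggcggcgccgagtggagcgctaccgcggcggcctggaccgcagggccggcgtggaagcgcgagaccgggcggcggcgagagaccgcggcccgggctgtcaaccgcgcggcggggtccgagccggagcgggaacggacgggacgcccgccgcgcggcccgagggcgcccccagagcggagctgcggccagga
Nqo1, chr19:52220218-52220517, minus strand: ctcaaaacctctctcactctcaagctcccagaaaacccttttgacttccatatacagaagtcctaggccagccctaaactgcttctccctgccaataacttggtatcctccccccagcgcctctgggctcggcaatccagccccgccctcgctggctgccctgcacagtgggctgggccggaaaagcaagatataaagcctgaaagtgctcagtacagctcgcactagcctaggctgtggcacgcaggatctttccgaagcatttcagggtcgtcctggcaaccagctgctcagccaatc
In Gclm the match occupied bases 79 to 87 of the window and began 172 bases before the start. Read on the other strand it spells TGACTAAGC. In Txnrd1 it occupied bases 173 to 181, began 78 bases before the start, and spells TGACAAAGC on the other strand. The Gclc and Nqo1 windows hold no match within these 300 bases. The E-box CACGTG, present in 6.42% of all windows, and the AP-1 site TGAGTCA, present in 4.63%, had no match in the 7 windows. A match is a description of the letters and was not tested as a binding site.

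The arrays differed more by time than by strain. Correlations over all probes were 0.969 to 0.985 within a group, 0.964 to 0.986 between treatments at 1 time, and 0.922 to 0.960 between times. A probe was called where its limma p, adjusted by Benjamini-Hochberg over the 11258 kept probes, was under 0.05. Every adjusted p given comes from that test, except where another fit is named. Intensities are the authors' normalized linear values, on which the array median is 57.0. The 8 tenocyte markers on the array were all bright enough to keep, and their summed intensity was 39699 to 59123 in unstrained fascicles at 1 h and 27265 to 34113 at 24 h. The 14 macrophage and leucocyte markers summed to 3279 to 5753 and 2698 to 3596 in the same groups, with Ptprc among the dim probes. Endothelial markers, 7 on the array, summed to at most 397, with Cdh5, Vwf, Tek and Egfl7 dim, and 5 erythroid markers to at most 317, with Hbb and Alas2 dim. The 7 muscle markers summed to 361 to 464, with Ckm, Myh2, Myh4, Myl11 and Mb dim, and the nerve marker Sox10 was also dim. A background remains in every value, so the endothelial, erythroid and muscle sums do not show that these cells were present. The 6 nerve markers summed to 2367 to 3492 without and 2484 to 4472 with strain at 1 h, and to 1618 to 1687 and 1235 to 1327 at 24 h, so that the times did not overlap. In such bulk samples, fewer cells of a type and less RNA per cell cannot be told apart. No source says whether arrays of both times were prepared together, so a batch and time cannot be told apart.

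**Figure D1:**
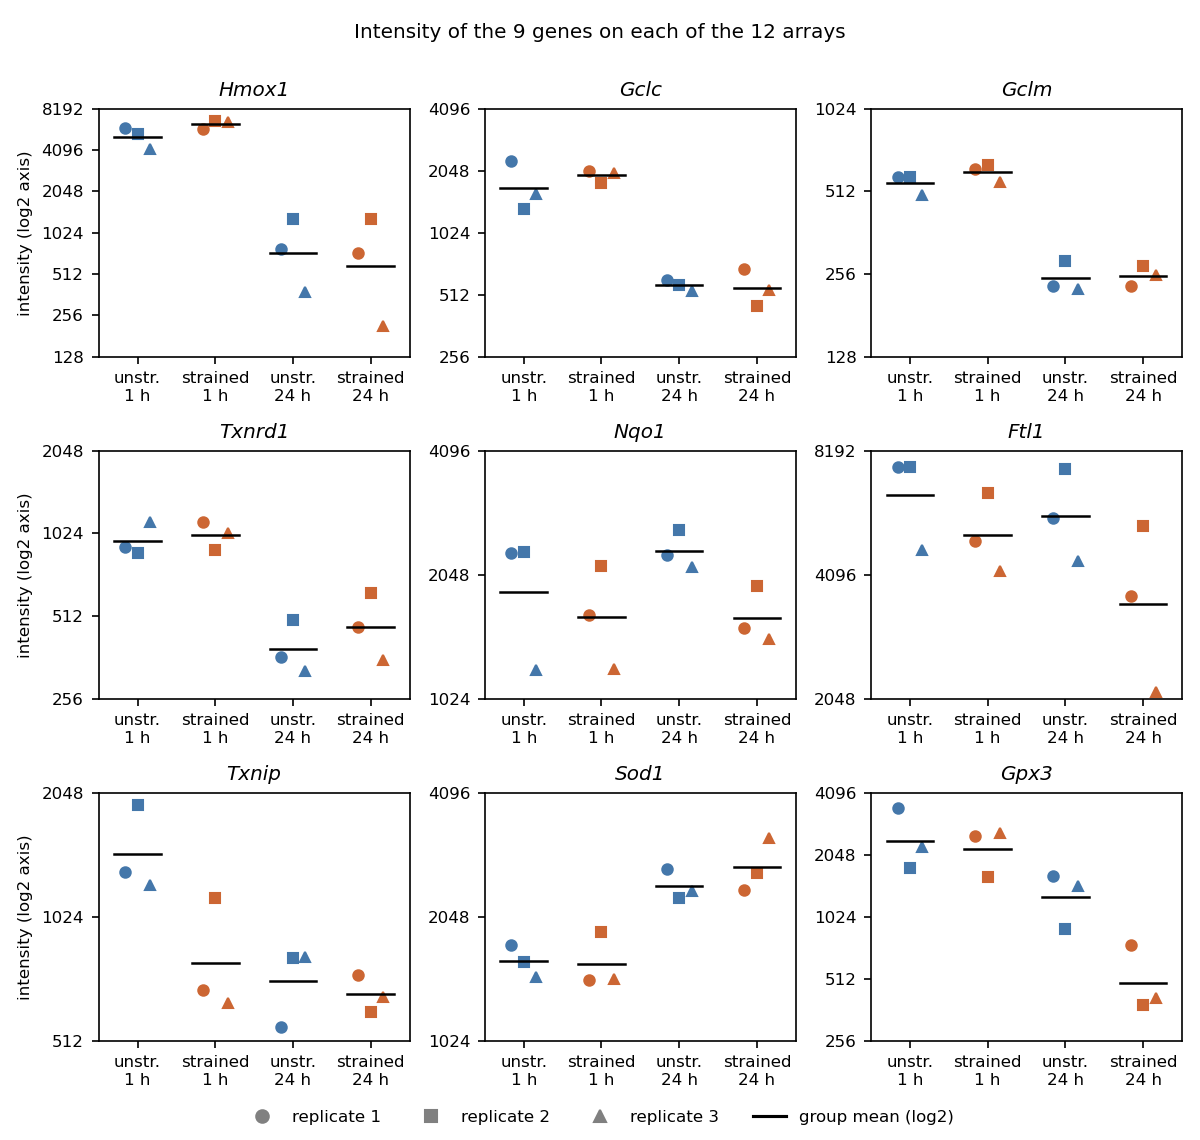
Intensity of the 9 genes on a log axis, 1 panel per gene, with 1 point per array in each of the 4 groups and a line at the mean of the log2 values. Shape marks the replicate number. Hmox1, Gclc, Gclm and Txnrd1 sit high at 1 h and low at 24 h in both treatments, Sod1 does the reverse, and Gpx3 is lowest in strained fascicles at 24 h.

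Between 1 h and 24 h, Hmox1, Gclc, Gclm and Txnrd1 fell in unstrained and in strained fascicles alike, Sod1 rose in both, and Nqo1 and Ftl1 were not called in either. In unstrained fascicles 6 of the 9 genes were called, 5 lower and 1 higher, where 17.2% of all kept probes were called, 7.42% lower and 9.83% higher. In strained fascicles 6 of 9 were called, again 5 lower and 1 higher, where 20.7% were called, 8.52% lower and 12.2% higher. Beside Hmox1, Gclc, Gclm and Txnrd1, the lower gene was Txnip, which blocks thioredoxin, without strain and Gpx3 with it. The median log2 difference of the 9 genes was -1.02 in unstrained and -1.11 in strained fascicles, against 0.00 and 0.01 for all kept probes. The groups of arrays did not overlap for 7 of 9 genes in unstrained fascicles, as for 33.7% of all probes, and for 6 of 9 in strained ones, as for 34.4%. The 9 probes are among the brightest, and shares among probes of like signal are not given. Fewer of the genes were called for strain. At 1 h, 0 of the 9 were called by limma, as were 0 of all 11258 probes (0.0%), while 552 probes (4.9%) had an unadjusted p under 0.05. At 24 h 1 of the 9, Gpx3, was called, and 2.34% of all probes were, 1.37% lower and 0.968% higher. The difference between both strain effects was called for 0 of 9 genes and for 9 probes (0.0799%), with 917 probes (8.15%) at an unadjusted p under 0.05. These counts come from the fit without a replicate block, since no label pairs the samples. With a block at 1 h alone, added after the data were seen, 12 probes (0.107%) were called at 1 h and 579 (5.14%) at 24 h. Of the 9 genes, that block called 2 at 24 h, Gpx3 and Nqo1. The time comparisons share arrays with the strain comparisons, so they are not independent of them.

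**Figure D2:**
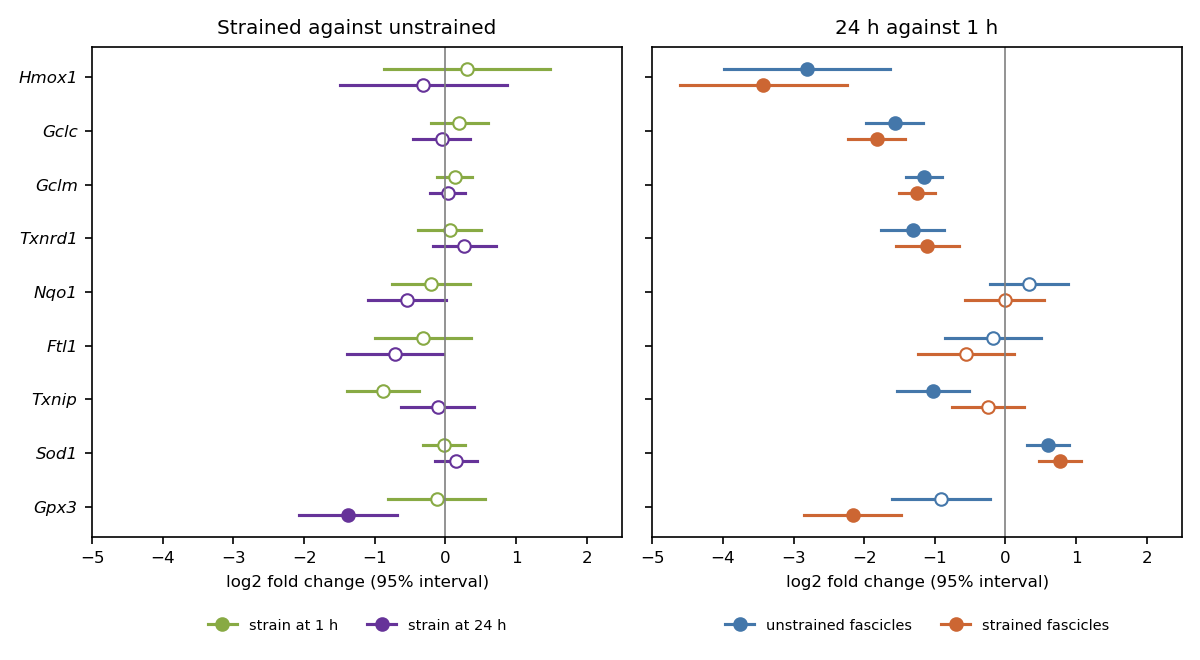
Log2 fold change of each gene with its 95% interval, for strained against unstrained fascicles (left, by time) and for 24 h against 1 h (right, by treatment). Filled points were called at an adjusted p under 0.05. The right panel holds 12 filled points and the left panel 1, for Gpx3 at 24 h.

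Hmox1 encodes heme oxygenase-1, which opens the heme ring to biliverdin, carbon monoxide and iron. Its intensities were 5919, 5355 and 4180.2 in unstrained fascicles at 1 h and 5803, 6668 and 6523 in strained ones. At 24 h they were 785, 1295 and 381 without strain and 730.45, 1291 and 216 with it. All 6 arrays at 1 h lay above all 6 at 24 h, and the treatments overlapped at both times. Unstrained fascicles fell by 2.81 ± 0.54 on the log2 scale (SE, n = 3 against 3), which is 6.99-fold (adjusted p = 0.00391). Strained fascicles fell by 3.43 ± 0.54, or 10.7-fold (adjusted p = 9.16e-04). Without strained 24 h replicate 3 the log2 value of the strained fall was -2.70, and over the 12 fits that each left out 1 array the adjusted p was at most 0.00426. The strain effect was 0.31 ± 0.54 at 1 h and -0.31 ± 0.54 at 24 h, and neither passed the test (adjusted p = 0.994 and 0.914). The arrays spread most at 24 h, where replicate 3 was lowest and replicate 2 highest in both treatments.

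Ftl1 encodes the light chain of ferritin, the shell that stores iron. Its intensities were 7469, 7469 and 4694 in unstrained and 4960.25, 6456 and 4180.2 in strained fascicles at 1 h. At 24 h the values were 5613, 7394 and 4434 without strain and 3647, 5391 and 2127 with it. The groups overlapped at both times. The strain effect was -0.32 ± 0.31 at 1 h (adjusted p = 0.994) and -0.71 ± 0.31 at 24 h (adjusted p = 0.346), and the time differences of -0.17 and -0.56 were not called either. The gene table names 14 Ftl1 pseudogenes, so transcripts of near-identical copies could add to this probe.

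Gclc and Gclm encode the catalytic and the modifier subunit of glutamate-cysteine ligase, the first and rate-limiting step of glutathione synthesis. Gclc read 2289, 1339 and 1581 in unstrained and 2048, 1787 and 2007 in strained fascicles at 1 h. At 24 h it read 606, 570.07 and 537 without strain and 683, 449.62 and 542 with it. Gclm read 579, 576 and 497 without and 617, 637 and 554 with strain at 1 h, then 232, 287 and 227 without and 231, 274 and 255 with strain at 24 h. For both subunits the 1 h arrays lay above the 24 h arrays with no overlap, and treatments at 1 time overlapped. Gclc fell 2.97-fold without strain (log2 -1.57 ± 0.19, adjusted p = 2.08e-04) and 3.53-fold with it (log2 -1.82 ± 0.19, adjusted p = 6.68e-05). Gclm fell 2.22-fold (log2 -1.15 ± 0.12, adjusted p = 7.32e-05) and 2.38-fold (log2 -1.25 ± 0.12, adjusted p = 4.25e-05). Strain effects on both subunits lay between -0.05 and 0.20 and were not called.

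Txnrd1 encodes the cytosolic thioredoxin reductase, a selenoprotein that keeps thioredoxin reduced with NADPH. Its intensities at 1 h were 914, 872 and 1128 in unstrained and 1125, 889.53 and 1026 in strained fascicles. At 24 h they were 364, 497 and 324 without strain and 466, 622 and 353 with it. The times did not overlap and the treatments did. Txnrd1 fell 2.49-fold without strain (log2 -1.31 ± 0.20, adjusted p = 0.00117) and 2.16-fold with it (log2 -1.11 ± 0.20, adjusted p = 0.00240). The strain effect was 0.06 ± 0.20 at 1 h and 0.27 ± 0.20 at 24 h, neither of them called.

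Txnip encodes an arrestin-like protein that binds thioredoxin, blocks its action and restrains glucose uptake. Its values were 1316, 1912 and 1223 in unstrained and 682, 1136 and 634 in strained fascicles at 1 h. Every strained array lay below every unstrained array at 1 h, which held for 1 of the 9 genes and for 7.81% of all probes in either direction. At 24 h the values were 554, 813 and 817 without strain and 742, 602 and 654 with it, and they overlapped. The strain effect at 1 h was -0.88 ± 0.23 on the log2 scale, with an unadjusted p of 0.00268 from limma and an adjusted p of 0.858, rank 35 by p among all probes. No label states that samples are paired, but same-numbered arrays deviated alike at 1 h, and their 3 differences were -0.95, -0.75 and -0.95. With the replicate as a block at 1 h alone, the adjusted p was 0.0540 (0.107% of probes called), so Txnip was not called. A block within each time gave 0.0400 (0.204% called), but it also blocks the 24 h arrays, where the pairing was not accepted. At 24 h the strain effect was -0.11 ± 0.23, and the difference between the times was 0.77 ± 0.33 (adjusted p = 0.561). Macrophage and leucocyte markers summed to 2307 to 3886 in strained fascicles at 1 h, overlapping the unstrained 3279 to 5753, with 11 of 13 negative and 0 called, and their part in the result was not tested. With time, Txnip fell 2.03-fold in unstrained fascicles (log2 -1.02 ± 0.23, adjusted p = 0.0107; 0.0533 without unstrained 24 h replicate 1). In strained fascicles the time difference was -0.25 ± 0.23 and was not called.

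Nqo1 encodes a quinone reductase that uses NADH or NADPH and is a standard readout of Nrf2. Its values at 1 h were 2309, 2327 and 1204 in unstrained and 1636.5, 2149 and 1212 in strained fascicles, which overlapped. At 24 h they were 2283, 2629 and 2137 without strain and 1518, 1921 and 1428 with it, so that every strained array lay below every unstrained one. Arrays were parted in this way for 2 of the 9 genes at 24 h, Nqo1 and Gpx3, and for 20.5% of all probes. The strain effect at 24 h was -0.54 ± 0.25 (adjusted p = 0.396) and at 1 h -0.20 ± 0.25. With the replicate as a block at 1 h alone, the 24 h effect stayed at -0.54 and its standard error was 0.14. It was then called (adjusted p = 0.0443), as were 5.14% of all probes. That block, added after the data were seen, has no term for the 24 h arrays and acts through the shared estimate of the spread. The time difference was 0.33 ± 0.25 in unstrained and -0.01 ± 0.25 in strained fascicles, neither of them called.

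Sod1 encodes the copper- and zinc-dependent superoxide dismutase of the cytosol, which turns superoxide into hydrogen peroxide. Its intensities were 1748, 1591 and 1465 in unstrained and 1442, 1880.49 and 1445 in strained fascicles at 1 h. At 24 h they were 2675, 2276 and 2359.61 without strain and 2373, 2621 and 3175 with it. Every 24 h array lay above every 1 h array. Sod1 rose 1.52-fold without strain (log2 0.61 ± 0.14, adjusted p = 0.00958) and 1.71-fold with it (log2 0.78 ± 0.14, adjusted p = 0.00174). Strain effects of -0.02 and 0.15 were not called.

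Gpx3 encodes the secreted glutathione peroxidase, a selenoprotein that reduces peroxides outside the cell. Its values at 1 h were 3466, 1771 and 2230.2 in unstrained and 2515, 1603 and 2621 in strained fascicles, which overlapped. At 24 h they were 1607, 898 and 1437 without strain and 743, 381 and 414.5 with it, which did not. At 24 h strained fascicles were 2.60-fold lower, with a 95% interval of 1.61 to 4.21 (log2 -1.38 ± 0.32, adjusted p = 0.0446). The call was lost in 7 of 12 fits that each left out 1 array, with adjusted p from 0.0514 to 0.204: without strained replicate 2 or 3 or unstrained replicate 1 or 3 at 24 h, and without strained replicate 1 or unstrained replicate 2 or 3 at 1 h. Over all 12 such fits the log2 value stayed between -1.68 and -1.20. With the replicate as a block at 1 h alone, Gpx3 was called (adjusted p = 0.0131), as were 5.14% of all probes. That block was added after the data were seen and has no term for the 24 h arrays. Blocks over all arrays and within each time gave 0.00107 and 2.77e-04, but also block the 24 h arrays, where pairing was not accepted. At 1 h the strain effect was -0.12 ± 0.32, and the difference between the times was -1.26 ± 0.45 (adjusted p = 0.426). With time, Gpx3 fell 4.48-fold in strained fascicles (log2 -2.16 ± 0.32, adjusted p = 6.02e-04), and in unstrained ones the difference was -0.91 ± 0.32 (adjusted p = 0.0721). Beside this, macrophage and leucocyte markers summed to 1718 to 2347 in strained fascicles at 24 h, below the unstrained 2698 to 3596, with 12 of 13 negative and 2 called lower, Fcgr2b and Cd53. The nerve markers summed to 1235 to 1327 with strain, below the unstrained 1618 to 1687, with 5 of 5 negative and 1, Cnp, called lower. The tenocyte markers summed to 21768 to 32755 with strain, overlapping the unstrained range, with 6 of 8 negative, a median of -0.32 and 0 called, where the macrophage and leucocyte median was -0.31. Of all kept probes, 1.37% were called lower for strain at 24 h. The part of these markers in the result was not tested.

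Among arrays of a group, some of the genes ran high or low together and others ran opposite ways. Deviations from the group mean correlated above 0 for 16 of the 36 pairs of genes and below 0 for 20. Over 12 arrays, deviations from the group mean correlated at 0.89 between Hmox1 and Ftl1, 0.81 between Gclc and Gpx3, 0.79 between Nqo1 and Ftl1, 0.78 between Hmox1 and Txnrd1, and 0.77 between Gclm and Nqo1, the 5 highest. The lowest values were -0.62 between Txnrd1 and Sod1, -0.61 between Gclm and Gpx3, and -0.49 between Txnip and Gpx3. At 24 h, replicate 2 was highest and replicate 3 lowest for Hmox1, Ftl1, Txnrd1 and Nqo1 in both treatments. Gclc and Gclm, the subunits of 1 enzyme, correlated at 0.94 over all 12 arrays and at -0.21 once the group means were taken out. These values share the library of each array and are given as a description.

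**Figure D3:**
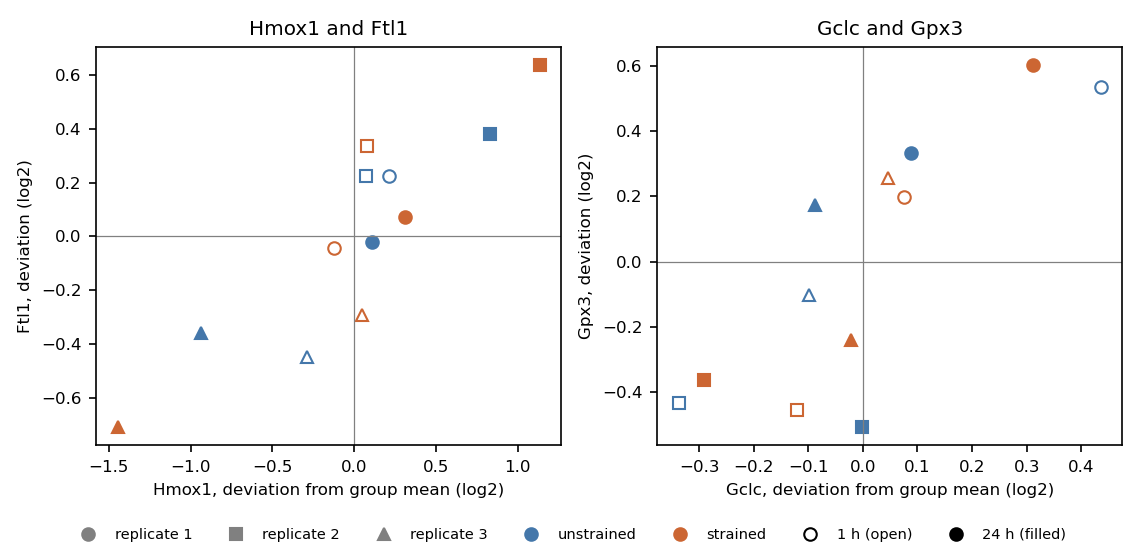
Deviation of each of the 12 arrays from its group mean on the log2 scale, for Ftl1 against Hmox1 (left) and Gpx3 against Gclc (right). Shape marks the replicate, colour the treatment, and filled points are 24 h. On the left, replicate 2 at 24 h lies top right and replicate 3 at 24 h bottom left in both treatments.

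The genes most like each of the 9 over all 12 arrays were found among 7779 other named genes by Pearson's r, which mostly follows the gap between the times. Hmox1 was most like Saraf (0.963) and Serp1 (0.959). Gclc was most like Tspan8 (0.985) and Herpud1 (0.984), and Gclm most like Zfand2a (0.984) and Hapln3 (0.972). Txnrd1 was most like Por (0.983), the reductase that feeds cytochromes P450, and Myc (0.971). Txnip was most like Gas7 (0.964), Gpx3 most like Oat (0.956) and Sod1 most like Ppil3 (0.972). Nqo1 (Il10rb, 0.900) and Ftl1 (Atp6v1b2, 0.911) had the loosest best matches.

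The wider antioxidant network was read from 7 lists of 120 genes, of which 103 were on the array and 89 were kept, the 9 genes left out. The time changes went in both directions. In unstrained fascicles 28 of 89 rose and 11 fell (43.8% called, median log2 difference 0.20), and in strained ones 21 rose and 13 fell (38.2%, median 0.15), where the median of all kept probes was 0.00 and 0.01. Over all kept probes 17.2% were called without strain, 9.83% higher and 7.42% lower, and 20.7% with it, 12.2% higher and 8.52% lower. Of 16 thioredoxin and peroxiredoxin genes, 8 rose and 0 fell without strain, 7 rose and 1 fell with it, and 8 did not pass in each. Prdx5, a peroxiredoxin of mitochondria, peroxisomes and cytosol, rose 3.80-fold without strain (adjusted p = 7.32e-05) and 2.17-fold with it (adjusted p = 0.00154). Prdx3, the mitochondrial peroxiredoxin, rose 1.80-fold and 2.20-fold, and Prdx6 1.91-fold and 2.13-fold. The list's median log2 difference was 0.47 without and 0.37 with strain.

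Of 23 glutathione genes, 5 rose and 4 fell without strain, and 6 rose and 3 fell with it (medians 0.10 and 0.05). The membrane-bound transferase Mgst2 rose 9.29-fold without strain, from 156 ± 27.8 to 1462 ± 361 (SD, n = 3; adjusted p = 7.25e-06), and 6.18-fold with it. Gpx1, the cytosolic glutathione peroxidase, fell 2.20-fold and 2.34-fold. The next list held 9 kept genes: Nrf2 itself, its small Maf partners and its regulators. Of these 9, 1 rose and 3 fell without strain, and 1 rose and 5 fell with it (medians 0.08 and -0.45). Rbx1, a RING subunit of the ligase that tags Nrf2, rose 1.65-fold and 1.70-fold, and Mafk, a small Maf partner of Nrf2, fell 2.31-fold and 2.33-fold. Nfe2l2, counted in this list, fell 1.68-fold in strained fascicles (log2 -0.75 ± 0.14, adjusted p = 0.00278), and the unstrained difference was 0.08 ± 0.14. Its strain effect at 24 h was -0.56 ± 0.14 and did not pass (adjusted p = 0.0646).

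Of 15 quinone and NADPH genes, 6 rose and 2 fell without strain, and 6 rose and 1 fell with it (medians 0.29 and 0.39). Between 1 h and 24 h, Cbr1, a carbonyl reductase, rose 1.70-fold in unstrained and 2.63-fold in strained fascicles. Aldh3a1, an aldehyde dehydrogenase, fell 1.95-fold and 2.37-fold, and its strained mean at 24 h, 57.3, lay near the array median of 57.0. Of 13 heme and iron genes, 5 rose and 1 fell without strain, and 1 rose and 1 fell with it (46.2% and 15.4% called, medians 0.37 and 0.20). The share with strain lay below that of all probes. Blvrb, a biliverdin reductase, rose 2.31-fold and 1.94-fold over the time in which Hmox1 fell. Of 7 genes of superoxide and peroxide removal, 3 rose without strain, and with it 1 rose and 1 fell (42.9% and 28.6% called, medians 0.53 and 0.38). Prdx6, which rose in both, is also counted in the thioredoxin and peroxiredoxin list. Of 7 relatives of Txnip and glucose genes, Hk2, a hexokinase, fell 2.03-fold and 1.79-fold and Ddit4, an inhibitor of mTOR signalling, rose 2.02-fold without strain (28.6% and, with strain, 14.3% called, medians -0.02 and -0.21). Over the same time, 3 of 8 tenocyte markers fell in unstrained and 6 in strained fascicles. In both, 8 of 8 were negative, with medians of -1.03 and -1.48, where the 9 genes had -1.02 and -1.11. Of 13 macrophage and leucocyte markers, 6 and 5 fell while 3 and 1 rose (medians -0.30 and -0.47). Of 5 nerve markers, Pmp22 fell and Cnp rose in both, while the summed nerve signal was lower at 24 h. Of all kept probes, 7.42% were called lower and 9.83% higher without strain, and 8.52% and 12.2% with it. The part of these markers in the time results was not tested.

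For strain, 0 of the 89 genes were called at 1 h (median log2 difference -0.04). At 24 h 5 of 89 were called lower and 0 higher (5.62%, against 2.34% of all probes), with a median of -0.06. Hp, which binds free hemoglobin, was 7.79-fold lower with strain (adjusted p = 2.33e-07), and Hpx, which binds heme, was 2.31-fold lower. The others were the detoxifying enzymes Mgst1 (3.24-fold), Ptgr1 (1.92-fold) and Gstt1 (1.34-fold). Hp, Hpx, Mgst1 and Ptgr1 had risen with time in unstrained fascicles. Mean Hp went from 57.6 at 1 h to 560 at 24 h without strain, and from 62.9 to 71.3 with it. Mean Hpx went from 55.5 to 164 and from 52.1 to 70.2. The strained values of both lie near the array median of 57.0. Mean Gstt1 at 24 h was 94.8 without strain and 70.7 with it, also not far above that median.

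**Figure D4:**
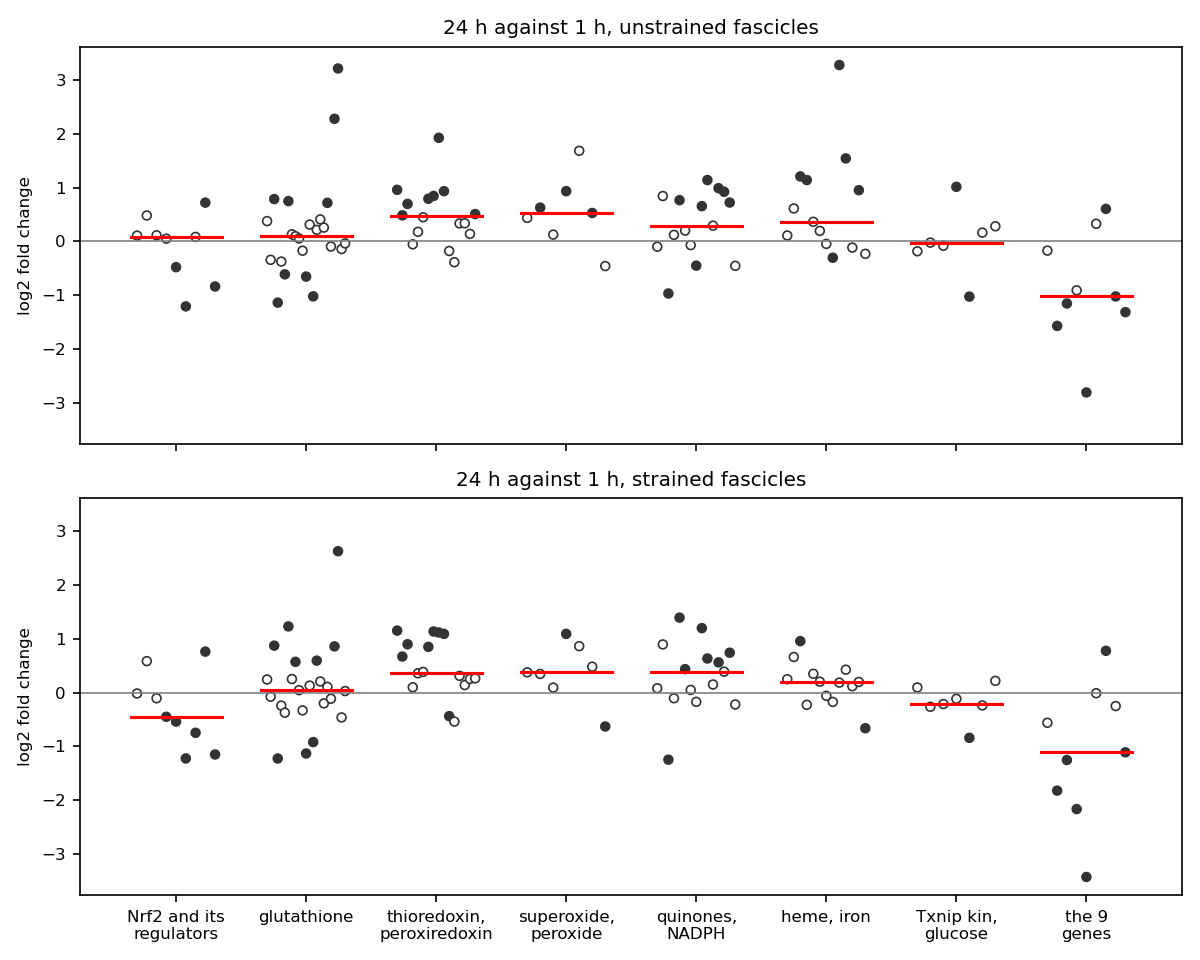
Log2 fold change from 1 h to 24 h for each kept gene of the 7 lists and for the 9 genes, in unstrained and in strained fascicles. Filled points were called and red lines are list medians. The thioredoxin and peroxiredoxin list lies mostly above 0, and the 9 genes mostly below it.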

How the data were processed

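The deposited intensity values are linear and were already normalized between arrays by the authors: each array has a median of 57.0, sorted values differ between arrays by at most 0.0928%, and the lowest value is 33.7, so a background remains. No source used here names the software. Per the labels' protocols, biotin-labelled RNA came from a Trizol extraction with a column clean-up. A second deposited table numbers its columns, so its 24 columns of per-sample values could not be tied to samples and were not used.

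Intensities were taken to log2, and the upper 50% of 22517 probes by mean log2 signal over all arrays were kept (11258, the dimmest at a mean signal of 56.2). limma 3.58.1 in R 4.3.3 fitted 1 mean per group over 12 arrays (8 residual and 4.08 prior degrees of freedom), two-sided. It gave 5 contrasts: strain at 1 h, at 24 h, their difference, and time in unstrained and in strained fascicles. The number of arrays limits the precision (median standard error 0.12). The fit was run on simulated data with independent arrays. These lack the deviations that same-numbered arrays shared at 1 h, so the run is no check of the error rate here. Figures used Python 3.11.15 and matplotlib 3.10.9.

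Probes took their names from the platform annotation in GEO: 13787 carry 1 symbol, 0 carry several, and 8730 stay unnamed here. The 9 genes, the lists and the tests were chosen with earlier results of these data known. From each list and contrast, at most 3 called genes of smallest p could be named. The AP-1 motif and the block at 1 h alone were added after the data were seen. No label states that replicate numbers pair samples, so pairing was judged from these same arrays. At 1 h deviations of same-numbered arrays correlated at 0.604, 0.537 and 0.521, and the pairing was accepted. The cause of this likeness was not tested. At 24 h the values were 0.0387, 0.309 and 0.388, and the pairing was not accepted.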

Additional observations from a re-analysis of the deposited data

How the results depend on the processing

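Precision is limited by having 3 arrays per group. The 9 probes lay at or above the 94.2 percentile of mean signal. The background left in the values makes folds of dim genes smaller than the change of the transcript. Of 945 values of single genes under the alternatives, 899 kept direction and side of the threshold, 10 lost a call, 11 gained one and 25 changed sign, 22 of these when 1 array was left out.

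The number of the 9 genes called for strain at 24 h, 1 in the report, was 0 with the groups compared alone and with a trend and robust variance, 2 with a replicate block at 1 h alone (Gpx3 and Nqo1, the latter at 0.0443), 2 with one over all arrays (Gpx3 and Ftl1), 3 with a replicate block within each time, and 0 to 1 when single arrays were left out. For strain at 1 h it was 1 with a replicate block within each time. For the difference it was 1 with a replicate block over all arrays or within each time. In unstrained fascicles the time count ran from 5 to 7 without single arrays, and in strained ones it stayed at 6. The numbers were not accepted as pairs at 24 h, where the replicate block within each time also called Nqo1 (adjusted p = 0.0124), Ftl1 (0.00672) and the Gpx3 difference (0.0130). Over all probes that block called 23 at 1 h, 882 at 24 h and 184 for the difference, against 0, 263 and 9. A block within each time cannot test the time contrasts, and the alternative with a further probe could not be run, since each gene has 1. Gpx3 at 24 h had an adjusted p of 0.0548 with the groups compared alone and 0.0740 with a trend and robust variance, and the unstrained time difference of Gpx3 was called with the upper 25% of probes (0.0458) and with a replicate block over all arrays (0.00186), which also called the strained time difference of Ftl1 (0.0147).

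Signs changed in differences that were not called, the largest of them the Hmox1 difference of -0.62, and the cause was not tested. With cyclic loess, Gclm under strain at 24 h was -0.00341 and Sod1 under strain at 1 h 0.000608; with array weights the latter was 0.0238. Without single arrays, strain at 24 h ran from -0.88 to 0.41 for Hmox1, -0.21 to 0.0927 for Gclc and -0.0304 to 0.14 for Gclm. Strain at 1 h ran from -0.52 to 0.00943 for Nqo1, -0.0151 to 0.18 for Txnrd1, -0.15 to 0.0466 for Sod1 and -0.34 to 0.14 for Gpx3. The difference ran from -1.19 to 0.10 for Hmox1, -0.16 to 0.00769 for Gclm and -0.00098 to 0.41 for Txnrd1. The strained time difference ran from -0.22 to 0.19 for Nqo1 and -0.41 to 0.0131 for Txnip, and the unstrained one from -0.39 to 0.0100 for Ftl1. Under cyclic loess and with the lowest value subtracted, 0 called genes of the lists changed sign.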
